A study of Schizosaccharomyces pombe with 6 samples.

Results

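The mRNAs of 10 genes that form the stress-activated MAP kinase cascade of fission yeast were followed in *rae1-167* cells at 36°C for 1 h and at 25°C. The genes were taken by name: *mcs4*, *wis4*, *win1*, *wis1*, *sty1*, *pyp1*, *pyp2*, *atf1*, *pcr1* and *srk1*. Each of the 10 was measured by exactly 1 probe set that names no other gene, and these were 10 of 2919 *S. pombe* features (genes, or groups of genes that share a probe set) tested. *rae1-167* is a temperature-sensitive allele of the essential mRNA export factor gene *rae1*, in the 972 strain background. The groups were *rae1-167* cells grown to early log phase in YE4S and held at 36°C for 1 h (3 arrays), and *rae1-167* cells in the same medium at 25°C (3 arrays). All 6 samples carry the mutation and no array of wild type cells was analysed here, so the effect of the temperature and the effect of losing Rae1 cannot be told apart. The sources used here do not say which of the study's *rae1-167* strains was arrayed.

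The Sty1 pathway (Sty1 is also called Spc1 or Phh1) is the fission yeast relative of the p38 pathway of mammals, and answers heat, osmotic, oxidative and starvation stress. A phosphorelay of histidine kinases and the phosphotransfer protein Mpr1 ends in the response regulator Mcs4, which is bound to the MAP kinase kinase kinases Wis4 and Win1. They activate the MAP kinase kinase Wis1, which phosphorylates Sty1, and the tyrosine phosphatases Pyp1 and Pyp2 take that phosphate off again. Active Sty1 acts on the bZIP transcription factor Atf1, which pairs with Pcr1, and on the kinase Srk1. In *S. pombe* the *pyp2* and *srk1* genes are themselves known as stress-induced targets of Atf1. An array measures the amount of mRNA and not the phosphorylation that carries the signal.

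The deposited value is 1 signal intensity per probe set and array, on a linear scale in arbitrary units, and the number of arrays limits its precision. Median signals of the *S. pombe* features were 1146 to 1578 on the 36°C arrays, against 1939 to 2617 on the 25°C arrays, and 98.8% to 99.4% of features lay above the background of the same array (the 90th percentile of its *S. cerevisiae* probe sets). The median log2 fold change of all features, 36°C over 25°C, was -0.66 in the signals as deposited. That figure was 0.10 with every array centred on its own median, -0.02 after quantile normalization and -0.73 after scaling to the bacterial spike-in controls. A change in the deposited signals is therefore given beside this shift. Of 6 *S. pombe* control genes with probe sets at both ends of the transcript, 3 had a lower 5′ to 3′ signal ratio on every 36°C array than on any 25°C array, by 0.33 to 1.43 on the log2 scale, and its part in the results below was not tested. The 36°C array of replicate 1 correlated at 0.97 with the other 36°C arrays, which correlated at 0.997 with each other. At 25°C replicate 1 likewise correlated at 0.987 and 0.989 with the other arrays, which correlated at 0.997 with each other. Values without the 36°C array of replicate 1 are given for some of the genes named. The mutated gene *rae1* itself had signals of 1634, 1497 and 1530.3 at 36°C, against 4298, 4477 and 4717 at 25°C (36°C over 25°C at -1.53 on the log2 scale with an SE of 0.10, adjusted p = 5.7e-05 by limma), and it was also lower after centring (-0.77, adjusted p = 0.0049). The signal does not show which allele a cell carries, so it is no check of the labels.

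Of the 10 cascade genes, 5 were higher at 36°C (*mcs4*, *pyp1*, *pyp2*, *atf1* and *pcr1*), 1 was lower (*wis4*) and 4 did not pass the test (*win1*, *wis1*, *sty1* and *srk1*), with limma and an adjusted p under 0.05 over all features. Among all 2919 features 12.1% were higher and 51.9% lower by the same test. The median log2 fold change of the 10 genes was 0.80, and 9 of them lay above the median of all features. With each array centred on its median 7 of the 10 were higher and 1 lower, where 39.5% of all features were higher and 34.5% lower. Quantile normalization likewise gave 7 higher and 1 lower, where 30.3% of all features were higher and 33.9% lower. The 2 genes added to the higher ones under either scaling were *sty1* and *srk1*.

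**Figure D1:**
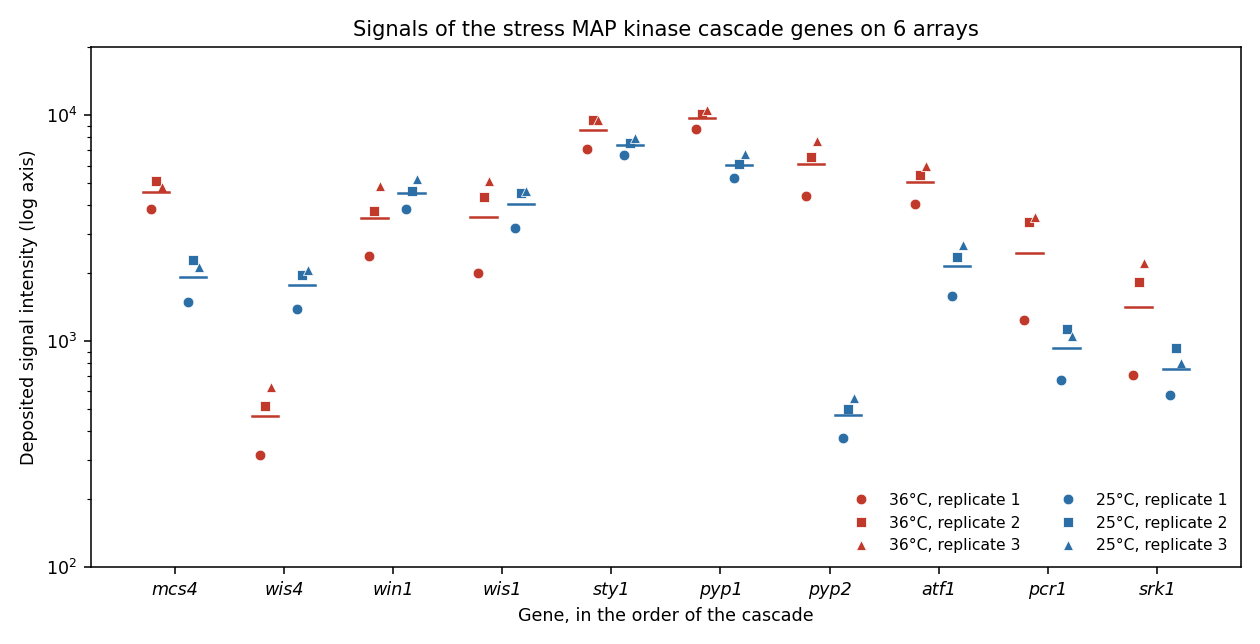
Deposited signal (vertical axis, log scale, arbitrary units) of the 10 cascade genes on each of the 6 arrays, with the 36°C arrays left of the 25°C arrays for each gene; points are arrays and horizontal lines are geometric means. The arrays of *mcs4*, *pyp1*, *pyp2*, *atf1* and *pcr1* at 36°C lie wholly above those at 25°C, those of *wis4* lie wholly below, and *pyp2* shows the widest gap.

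The groups of arrays did not overlap for the same 6 genes that passed the test, with 5 of them higher and 1 lower at 36°C. Over all features 15.0% were wholly higher and 56.4% wholly lower at 36°C. In bulk cultures such as these, fewer cells that hold an mRNA and less of it per cell cannot be told apart. The labels do not say that arrays of 1 temperature came from separate cultures, though the study calls them independent experiments. The p-values set the difference between temperatures against the spread of the arrays within each temperature. They do not show whether that spread is one between separate cultures.

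At the top of the kinase cascade, the response regulator gene *mcs4* rose. Its signals were 3858, 5133 and 4811 at 36°C, against 1498, 2279 and 2124 at 25°C. The lowest 36°C array lay well above the highest 25°C array. The mean was 4600 ± 663 at 36°C and 1967 ± 413 at 25°C (SD, n = 3 each), a log2 fold change of 1.24 (with an SE of 0.20, adjusted p = 0.0022 by limma). Within replicates 1, 2 and 3 the log2 difference was 1.36, 1.17 and 1.18, so its size was similar in the 3 replicate numbers. Among all features 94.2% had a lower log2 fold change. That of *mcs4* was 1.87 after quantile normalization and 2.00 after centring. Centring adds the same 0.76 to the log2 fold change of every feature, so it could not turn a rise into a fall.

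Of the paired MAP kinase kinase kinases, which both act on Wis1 and share Mcs4 as a partner, *wis4* fell and *win1* did not pass the test. Signals of *wis4* were 315, 516 and 627 at 36°C, against 1396, 1966 and 2065 at 25°C. Every 36°C array lay below every 25°C array. The mean was 486 ± 158 at 36°C and 1809 ± 361 at 25°C (SD, n = 3 each), which is a log2 fold change of -1.93 (with an SE of 0.29, adjusted p = 0.0016 by limma), or 3.82-fold lower. *wis4* was the only one of the 10 cascade genes to lie below the median of all features, and it remained lower after centring (-1.17, adjusted p = 0.00037) and after quantile normalization (-0.80, adjusted p = 0.0032). Its share of features with a still lower change was 19.5%, so a change of this size was not rare on these arrays.

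Signals of *win1* were 2392, 3768 and 4882 at 36°C, against 3839, 4634 and 5238 at 25°C. The groups overlapped, and the spread at 36°C was the wider. The log2 fold change was -0.36 (95% interval -1.05 to 0.32, adjusted p = 0.30 by limma) in the deposited signals, but 0.40 after centring (adjusted p = 0.058) and 0.10 after quantile normalization (adjusted p = 0.59), so that its direction depended on the scaling. With arrays both centred and blocked by replicate number the adjusted p was 0.043. In the deposited signals without the 36°C array of replicate 1 the log2 fold change of *win1* was -0.080 (adjusted p = 0.74 by limma).

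The MAP kinase kinase gene *wis1*, whose product is the activator of Sty1, had signals of 1999, 4339 and 5126.5 at 36°C, against 3186, 4554 and 4626 at 25°C. The 36°C array of replicate 1 was the lowest of the 6 and the 36°C array of replicate 3 the highest, so the 36°C arrays spanned the whole range of the 25°C arrays. The log2 fold change was -0.20 (95% interval -1.12 to 0.72, adjusted p = 0.69 by limma) as deposited, 0.56 after centring (adjusted p = 0.060) and 0.28 after quantile normalization (adjusted p = 0.35). Without the 36°C array of replicate 1 it was 0.21 (adjusted p = 0.40), again with the other sign. Centring together with the replicate block gave an adjusted p of 0.034. No direction can be given for *wis1* from these arrays.

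*sty1* encodes the MAP kinase on which the pathway converges. Its signals were 7106, 9521 and 9540.4 at 36°C, against 6710.4, 7554 and 7935 at 25°C. Both arrays of replicate 1 were the lowest of their temperature, and the 36°C one lay inside the range of the 25°C arrays. The mean was 8723 ± 1399.7 at 36°C and 7400 ± 627 at 25°C (SD, n = 3 each), with a log2 fold change of 0.23 (95% interval -0.16 to 0.61, adjusted p = 0.26 by limma), which did not pass. It passed after centring (0.99, adjusted p = 0.00023), after quantile normalization (0.47, adjusted p = 0.0050) and without the 36°C array of replicate 1 (0.37, adjusted p = 0.037). Over all single arrays left out, the log2 fold change of *sty1* ranged from 0.16 to 0.37 and its adjusted p from 0.037 to 0.51. Without both arrays of replicate 1 the change was 0.30 (adjusted p = 0.033). In each replicate number the 36°C array was the higher one, by 0.08, 0.33 and 0.27 on the log2 scale. Of all features 81.4% had a lower change.

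The tyrosine phosphatases that dephosphorylate Sty1 both rose, by very different amounts. *pyp2*, the stress-inducible one of the pair, had signals of 4392, 6571 and 7735 at 36°C, against 374, 500.2 and 561 at 25°C. No 25°C array came near any 36°C array. The mean was 6233 ± 1697 at 36°C and 478 ± 95.4 at 25°C (SD, n = 3 each), a log2 fold change of 3.69 (with an SE of 0.26, 95% interval 3.05 to 4.32, adjusted p = 6.6e-05 by limma), or 12.9-fold. Within the replicate numbers the fold was 11.7, 13.1 and 13.8, and 99.3% of all features had a lower change. Ranked from the highest, *pyp2* was feature 21 of 2919, and its log2 fold change was 4.45 after centring, 4.64 after quantile normalization and 3.62 after scaling to the spike-in controls.

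*pyp1*, known as the main phosphatase of Sty1 in unstressed cells, had signals of 8703, 10166 and 10556 at 36°C, against 5269, 6109.6 and 6774 at 25°C. The groups did not overlap. The mean was 9808 ± 977 at 36°C and 6051 ± 754 at 25°C (SD, n = 3 each), with a log2 fold change of 0.70 (with an SE of 0.14, adjusted p = 0.0058 by limma), or 1.62-fold. It was the most even of the higher genes, with log2 differences of 0.72, 0.73 and 0.64 within the replicate numbers, and with any single array left out its adjusted p was 0.026 or less. Without both arrays of replicate 2 it did not pass (adjusted p = 0.092).

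The transcription factor genes *atf1* and *pcr1*, whose products bind DNA as a heterodimer, both rose. *atf1* had signals of 4058, 5445 and 5996 at 36°C, against 1582, 2359 and 2665 at 25°C. Every 36°C array lay above every 25°C array. The mean was 5166 ± 998 at 36°C and 2202 ± 559 at 25°C (SD, n = 3 each), a log2 fold change of 1.25 (with an SE of 0.25, adjusted p = 0.0050 by limma). The log2 difference was 1.36, 1.21 and 1.17 within replicates 1, 2 and 3. Its change was 2.01 after centring and 1.81 after quantile normalization, and in the deposited signals it did not pass without both arrays of replicate 2 (adjusted p = 0.061).

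*pcr1* had signals of 1239, 3367 and 3541 at 36°C, against 677, 1132 and 1053 at 25°C. The 36°C array of replicate 1 stood far below the other 36°C arrays, and just above the highest 25°C array. The mean was 2715 ± 1282 at 36°C and 954 ± 244 at 25°C (SD, n = 3 each), with a log2 fold change of 1.398 (with an SE of 0.45, adjusted p = 0.034 by limma). This call did not hold when any single array other than the 36°C array of replicate 1 was left out (adjusted p = 0.057 to 0.11), or when the unnamed probe sets were added to the test (adjusted p = 0.079). Without the 36°C array of replicate 1 the log2 fold change was 1.89 (adjusted p = 0.00093). All 3 replicate numbers went the same way, by 0.87, 1.57 and 1.75 on the log2 scale.

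*srk1* encodes a kinase activated by Sty1 that holds back entry into mitosis through the phosphatase Cdc25. Its signals were 712, 1822 and 2220.4 at 36°C, against 578, 937 and 802 at 25°C. The 36°C array of replicate 1 lay inside the range of the 25°C arrays, and both other 36°C arrays lay above all of them. The mean was 1585 ± 782 at 36°C and 772 ± 181 at 25°C (SD, n = 3 each), with a log2 fold change of 0.91 (95% interval -0.19 to 2.01, adjusted p = 0.13 by limma), which did not pass. With the replicate number as a block the same change had an adjusted p of 0.021. It also passed without the 36°C array of replicate 1 (1.41, adjusted p = 0.0026), after centring (1.67, adjusted p = 0.0013) and after quantile normalization (2.08, adjusted p = 0.0010). Over all single arrays left out, the log2 fold change of *srk1* ranged from 0.59 to 1.41 and its adjusted p from 0.0026 to 0.30.

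**Figure D2:**
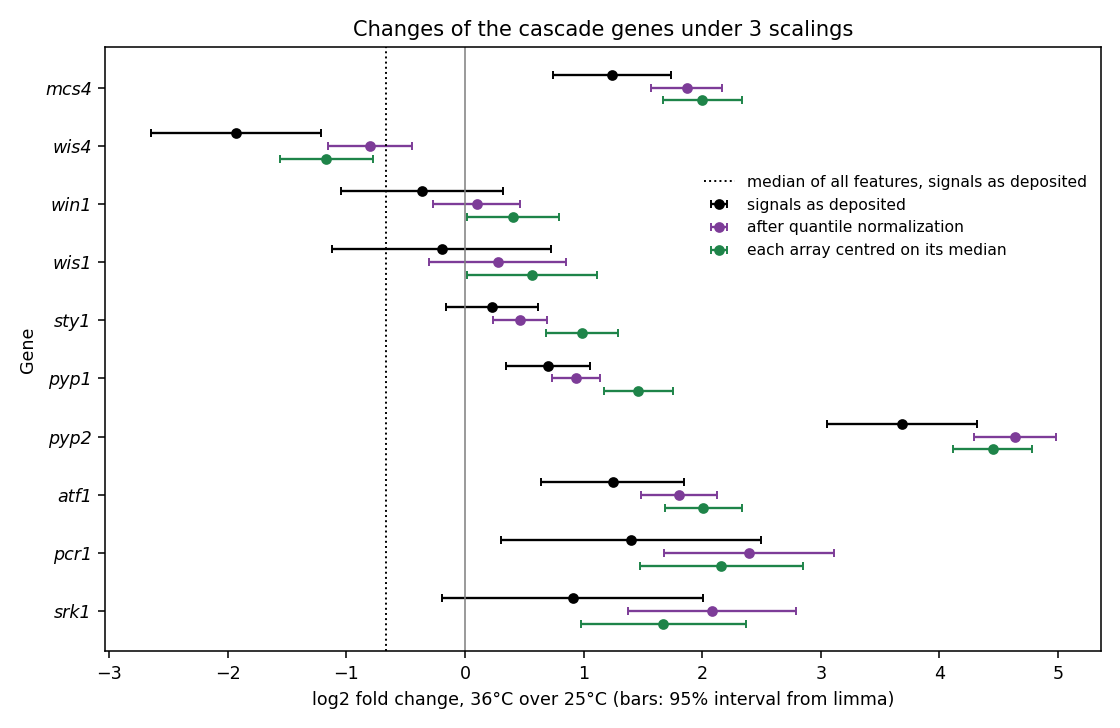
Log2 fold change, 36°C over 25°C, of each cascade gene (horizontal axis) with its 95% interval from limma, for the signals as deposited, after quantile normalization and after centring each array on its median; the dotted line marks the median of all features in the deposited signals (-0.66). *pyp2* lies at 3.69 to 4.64 and *wis4* below 0 under all 3 scalings, while *win1* and *wis1* change sign.

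Set side by side by role, the deposited signals of the regulator (*mcs4*), the phosphatases and the transcription factors were higher at 36°C. Among the 5 kinase genes *wis4* was lower and *win1*, *wis1*, *sty1* and *srk1* did not pass, of which *sty1* and *srk1* passed as higher under centring and quantile normalization. Changes of the deposited signals within replicate number went up in all 3 replicates for 7 of the 10 genes, and down in all 3 for 2 (*wis4* and *win1*). These directions were not counted under the other scalings. Of all features 20.8% were higher and 65.4% lower in all 3 replicate numbers, also as deposited. With the replicate number as a block, 6 of the 10 genes were higher and 1 lower, where 16.0% of all features were higher and 58.9% lower, and *srk1* was the one gained. Replicate 1 carries another form of label than replicates 2 and 3. Within replicates 2 and 3 alone 7 genes were higher and 1 lower, where 16.6% of all features were higher and 60.2% lower. *sty1* at 0.30 (adjusted p = 0.033) and *srk1* at 1.21 (adjusted p = 2.3e-05 by limma) were among the higher.

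**Figure D3:**
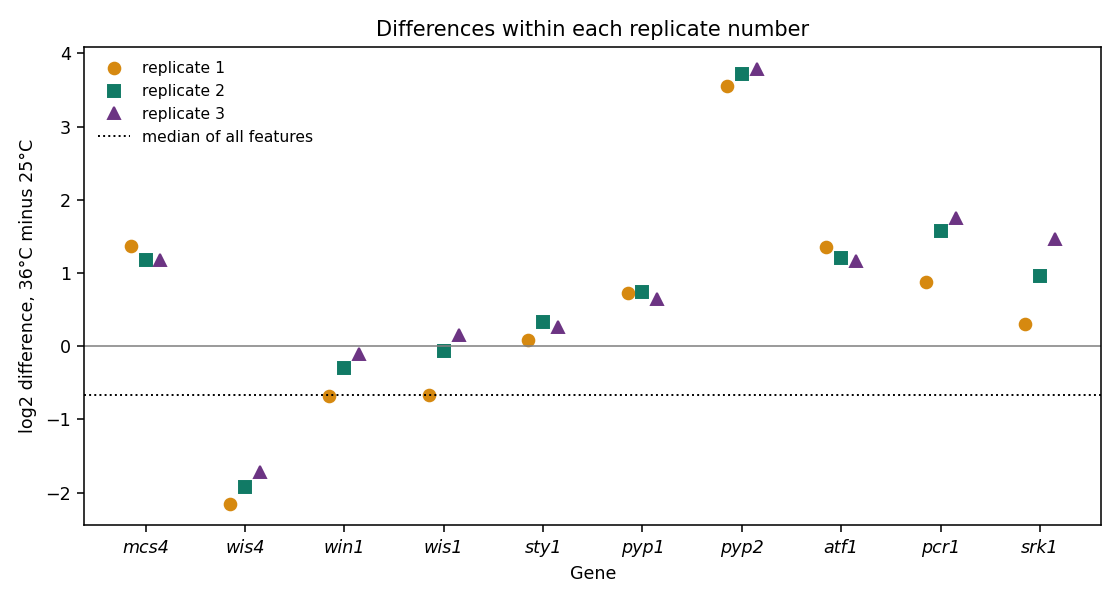
Log2 difference between the 36°C and the 25°C array of the same replicate number (vertical axis) for each cascade gene; each point is 1 replicate number and the dotted line is the median change of all features (-0.66). The points lie close together for *pyp1* (0.64 to 0.73) and spread widest for *srk1* (0.30 to 1.47), and *wis1* has points on both sides of 0.

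How evenly 2 genes of the cascade changed can be read from the ratio of their signals on the same array. Multiplying all signals of an array by 1 factor leaves this ratio untouched, but quantile normalization can change it. After quantile normalization the log2 fold changes were 0.10 for *win1* and -0.80 for *wis4*, and 4.64 for *pyp2* and 0.94 for *pyp1*. The ratios below are those of the deposited signals, and no pair was tested after quantile normalization. The level of such a ratio has no meaning across probe sets, and only its difference between temperatures was compared, with an exact two-sided permutation test over the 6 arrays. With 3 arrays against 3 the smallest p this test can give is 0.10, so no pair could reach 0.05. The 5 pairs were those that act together, and p-values were adjusted over them.

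The log2 ratio of *pyp2* over *pyp1* was -0.99, -0.63 and -0.45 at 36°C, against -3.82, -3.61 and -3.59 at 25°C. The groups lay far apart. The difference was 2.99 (exact permutation p = 0.10, adjusted p = 0.25), so the signal of *pyp2* rose 7.92-fold more than that of *pyp1*. For the MAP kinase kinase kinases, the log2 ratio of *win1* over *wis4* was 2.93, 2.87 and 2.96 at 36°C, against 1.46, 1.24 and 1.34 at 25°C. These ratios were the tightest of the 5 pairs at 36°C, and again did not overlap. The difference was 1.57 (exact permutation p = 0.10, adjusted p = 0.25), or 2.97-fold.

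The other 3 pairs overlapped between temperatures. For the dimer partners, the log2 ratio of *atf1* over *pcr1* was 1.71, 0.69 and 0.76 at 36°C, against 1.22, 1.06 and 1.34 at 25°C, with a difference of -0.15 (exact permutation p = 0.80). Leaving out 1 array moved this difference between -0.48 and 0.028. The ratio of *wis1* over *sty1* differed by -0.43 (exact permutation p = 0.20, adjusted p = 0.33), and that of *srk1* over *sty1* by 0.68 (exact permutation p = 0.30, adjusted p = 0.37). Within replicates 1, 2 and 3 the ratio of *wis1* over *sty1* nevertheless differed in 1 direction, by -0.76, -0.40 and -0.12, and so did that of *srk1* over *sty1*, by 0.22, 0.63 and 1.204. On the 36°C array of replicate 1 both ratios were the lowest of that temperature.

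**Figure D4:**
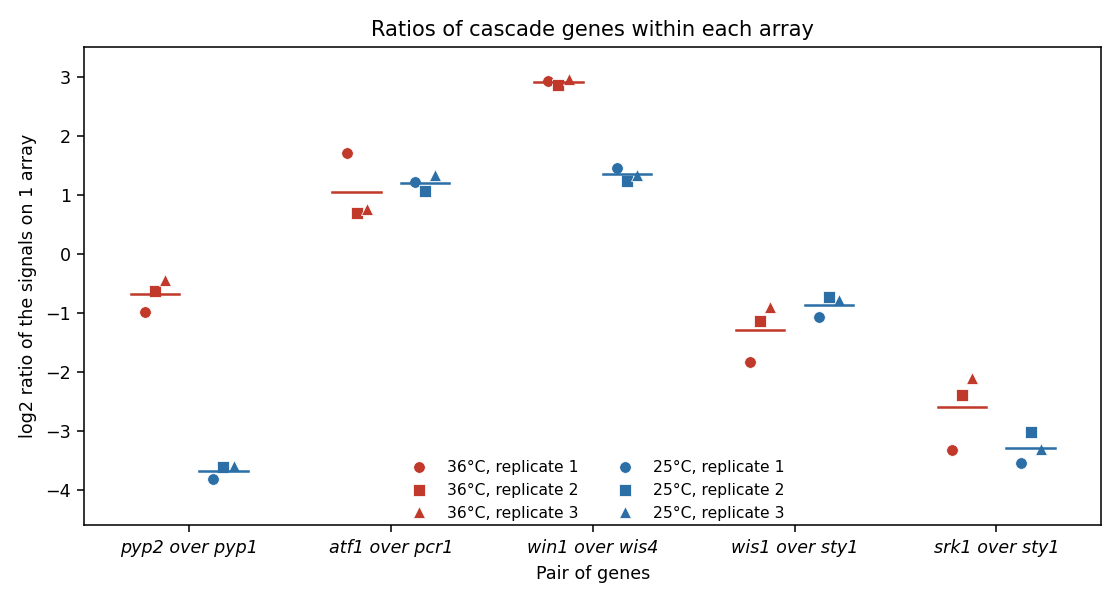
Log2 ratio of the signals of 2 cascade genes on the same array (vertical axis) for 5 pairs, with the 36°C arrays left of the 25°C arrays; points are arrays and lines are means. The arrays separate for *pyp2* over *pyp1* (difference 2.99) and for *win1* over *wis4* (difference 1.57), and overlap for the remaining pairs.

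The rest of the pathway was described by 7 lists of genes, 43 in all, of which 42 had a named probe set (*tdh1* did not). The lists were chosen with earlier results of these data known, so their counts and medians are descriptions and no test of the pathway. Of the 42, 13 were higher, 10 lower and 19 did not pass, with a median log2 fold change of 0.24, where 12.1% of all features were higher and 51.9% lower. Centring gave 29 higher and 9 lower ones (all features 39.5% and 34.5%) and quantile normalization 29 higher and 6 lower ones (all features 30.3% and 33.9%), so these counts depended on the scaling. The replicate block gave 18 higher and 13 lower (all features 16.0% and 58.9%).

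In the phosphorelay list, 1 of 5 measured genes was lower and 4 did not pass, where 51.9% of all features were lower. *mak2*, one of the histidine kinase genes of the relay, had a signal of 924 ± 269.9 at 36°C and 3773 ± 947 at 25°C (SD, n = 3 each; log2 fold change -2.04, adjusted p = 0.0012 by limma), and it was lower under centring (-1.28) and quantile normalization (-1.30) too. The phosphotransfer gene *mpr1* had a log2 fold change of 0.23 (adjusted p = 0.62) and the response regulator gene *prr1* one of 0.45 (adjusted p = 0.074). Both were higher after centring (*mpr1* 1.00, adjusted p = 0.0062; *prr1* 1.22, adjusted p = 5.2e-05) and after quantile normalization (*mpr1* 1.59, adjusted p = 0.00082; *prr1* 0.71, adjusted p = 0.0015), and *prr1* also with the replicate block (adjusted p = 0.0061). After centring 3 genes of this list were higher, where 39.5% of all features were. Without the 25°C array of replicate 1 the log2 fold change of *mpr1* was -0.012. With single arrays left out the adjusted p of *prr1* ranged from 0.019 (without the 36°C array of replicate 1) to 0.19.

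Type 2C phosphatases remove phosphate from the threonine of Sty1, and 1 of the 3 genes, *ptc3*, was lower, where 51.9% of all features were. Its signal was 1643 ± 194 at 36°C and 6371 ± 767 at 25°C (SD, n = 3 each; log2 fold change -1.95, adjusted p = 8.8e-05 by limma), the opposite direction from *pyp1* and *pyp2*. It was lower under every scaling used. *ptc2* had a log2 fold change of -1.25 that did not pass (adjusted p = 0.051), although its arrays did not overlap, and that was -0.49 after centring (adjusted p = 0.16) and turned to 0.23 after quantile normalization (adjusted p = 0.53). Under the replicate block the deposited change of *ptc2* had an adjusted p of 0.00023. *ptc1* had a log2 fold change of 0.16 (adjusted p = 0.72) as deposited, and passed as higher after centring (0.92, adjusted p = 0.0036) and quantile normalization (1.18, adjusted p = 0.0020). With single arrays left out the deposited change of *ptc1* took either sign, between -0.069 and 0.48.

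Among 9 partners and substrates of Sty1 and Srk1, 2 were higher and 2 lower, where 12.1% of all features were higher and 51.9% lower. *cdc25*, the mitotic phosphatase that Srk1 acts on, had signals of 2654, 4945 and 5644 at 36°C, against 1575, 2329 and 2390.3 at 25°C (log2 fold change 1.03, adjusted p = 0.032 by limma). Its arrays did not overlap, but, as for *pcr1*, the call was lost when any single array other than the 36°C array of replicate 1 was left out, or when the unnamed probe sets were added (adjusted p = 0.060 to 0.11). *cmk2*, the gene of a kinase that Sty1 phosphorylates, had a log2 fold change of 0.98 (adjusted p = 0.021). This call too was lost without the 25°C array of replicate 1, without the 36°C array of replicate 2 or 3, or with the unnamed probe sets added (adjusted p = 0.053 to 0.067). The RNA-binding protein gene *cip2* (-1.87, adjusted p = 0.0059) and *upf1*, the helicase gene of nonsense-mediated decay (-1.84, adjusted p = 0.00098), were the lower ones, and *cip2* did not pass after quantile normalization (-0.64, adjusted p = 0.061).

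Genes known to need Atf1 for their induction by stress in *S. pombe* gave 6 higher, 1 lower and 4 that did not pass of 11 measured, with a median log2 fold change of 0.91, where 12.1% of all features were higher and 51.9% lower. This list too was chosen with earlier results of these data known, so the comparison with all features describes these 11 genes only. *cta3*, a cation-transporting ATPase gene, had signals of 414, 1013 and 1066 at 36°C, against 77.1, 96.6 and 98.9 at 25°C (log2 fold change 3.08, adjusted p = 0.00062 by limma). *ish1*, a stress-responsive nuclear envelope gene, had a log2 fold change of 2.11 (adjusted p = 0.00021), and the catalase gene *ctt1* one of 1.62 (adjusted p = 0.00076). None of these 3 overlapped between temperatures. The glycerol-3-phosphate dehydrogenase gene *gpd1*, widely used as a reporter of this pathway, had one of 0.21 that did not pass (adjusted p = 0.29), and was higher after centring (0.97, adjusted p = 0.00032) and quantile normalization (0.33, adjusted p = 0.040). With single arrays left out the adjusted p of *gpd1* ranged from 0.037 (without the 36°C array of replicate 1) to 0.58. Only *fbp1*, a gluconeogenic gene that glucose represses, was lower (-1.19, adjusted p = 0.0081), and after quantile normalization its log2 fold change was 0.025. Under the replicate block 8 of the 11 were higher (all features 16.0%), and 10 were higher under centring (all features 39.5%) as under quantile normalization (all features 30.3%).

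Of the 4 other bZIP factor genes 3 were higher and 1 did not pass, with a median log2 fold change of 1.45, where 12.1% of all features were higher. *atf21* had signals of 253, 302 and 390 at 36°C, against 10.8, 12.7 and 11.0 at 25°C. All 3 arrays at 25°C were below background, so it was at least 16.9-fold higher at 36°C (adjusted p = 1.8e-05 by limma). *pap1*, the gene of the oxidative stress factor that works beside Atf1, had a signal of 9857 ± 913 at 36°C and 3507 ± 651 at 25°C (SD, n = 3 each; log2 fold change 1.50, adjusted p = 0.00048), and *atf31* had a log2 fold change of 1.402 (adjusted p = 0.016). Without the 36°C array of replicate 2, *atf31* did not pass (1.31, adjusted p = 0.058).

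The lists included 2 other MAP kinase cascades of the cell. In the cell integrity pathway 1 of 7 genes was higher and 3 were lower, shares near the 12.1% and 51.9% of all features. The protein kinase C genes went opposite ways, with *pck1* at a log2 fold change of 1.06 (adjusted p = 0.0052 by limma) and *pck2* at -2.46 (adjusted p = 7.6e-05). The MAP kinase kinase gene *pek1* was lower (-1.91, adjusted p = 0.0010), as was the phosphatase gene *pmp1* (-1.53, adjusted p = 0.00098), which after quantile normalization had -0.09. In the pheromone cascade *byr2*, the MAP kinase kinase kinase gene, was higher (1.53, adjusted p = 0.0084) and the MAP kinase kinase gene *byr1* lower (-1.15, adjusted p = 0.00069). The MAP kinase gene *spk1* was lower as deposited (-0.66, adjusted p = 0.021), which equals the median of all features, and its direction turned after centring (0.10) and quantile normalization (0.86, adjusted p = 0.00043).

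**Figure D5:**
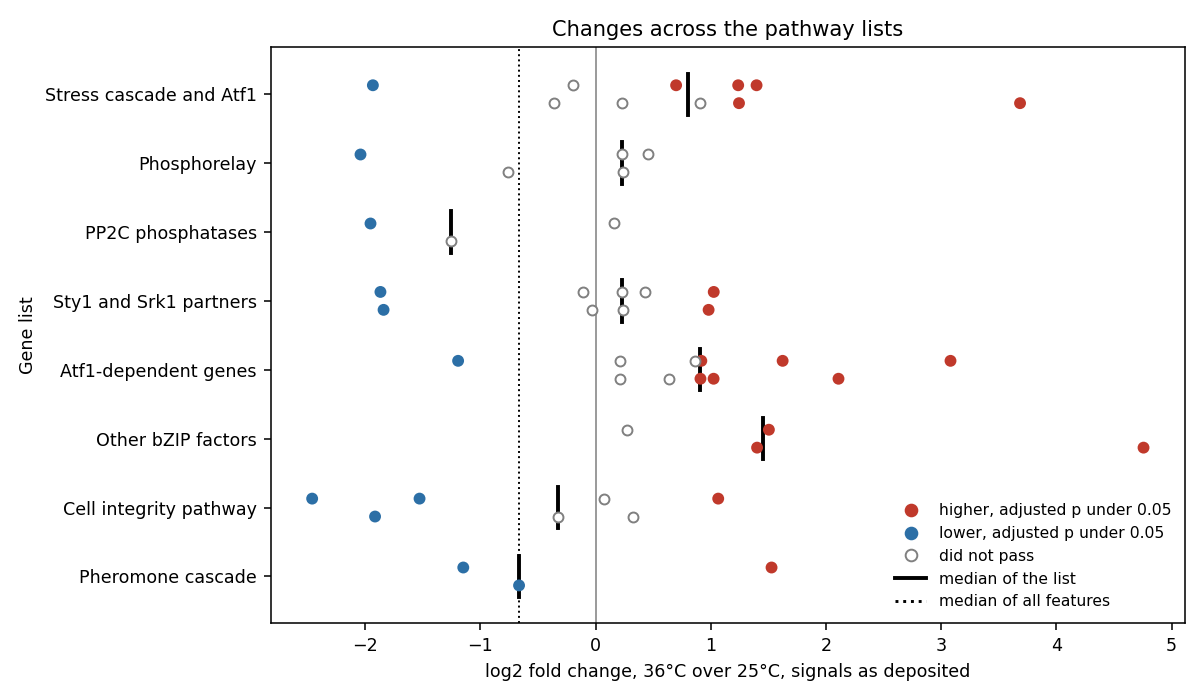
Log2 fold change, 36°C over 25°C, of each cascade gene (top) and of each gene in the 7 lists (horizontal axis, deposited signals), coloured by the limma test at an adjusted p under 0.05; short lines are list medians and the dotted line is the median of all features (-0.66). The lists of other bZIP factors (median 1.45) and of genes that need Atf1 (median 0.91) lie highest, and that of the type 2C phosphatases (median -1.25) lies lowest; the point farthest right is *atf21*, which was below background on all 25°C arrays.

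The features with the most similar profiles to *atf1* and *sty1* were found by the Euclidean distance between log2 signals, each centred on its own mean, over the 6 arrays and 2843 single genes above background on all of them. Among those nearest to *atf1* were the potassium transporter gene *trk2* (distance 0.15, log2 fold change 1.25) and *mdj1*, a mitochondrial chaperone gene (distance 0.16, log2 fold change 1.14). For *sty1* the nearest was *gpd1*, at a distance of 0.069 and a log2 fold change of 0.21, followed by *oac1* (distance 0.11, log2 fold change 0.31) and the glycine cleavage gene *gcv1* (distance 0.12, log2 fold change 0.29). All points come from the same 6 arrays and share their scaling, so these are descriptions without a test.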

How the data were processed

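The authors hybridised biotinylated cRNA from total RNA of *rae1-167* cells to GeneChip Yeast Genome 2.0 arrays and deposited signal intensities made with GCOS under default settings and global scaling. The scaling target is not given in the sources used here, and the deposited table holds no detection calls. Of 10928 probe sets, 2917 name 1 *S. pombe* gene in the platform annotation, 20 several, 2601 *S. cerevisiae* genes, 213 are controls and 5177 have no name. Log2 intensities (4 zeros set to 1) were averaged for 14 genes with several probe sets, which gave 2919 features. Systematic names came from RefSeq.

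The 36°C and 25°C arrays were compared by limma 3.58.1 (R 4.3.3), in 1 two-sided fit of lmFit and eBayes without a block over all features, with Benjamini-Hochberg adjustment at 0.05. The test was first run on simulated data. These had independent errors and no built-in shift of all features, unlike the arrays here, so they do not check the test under those conditions. Genes named are all 10 cascade genes, *rae1*, in each list up to 3 with the largest change past the test and any that alone moved against its list, and 3 nearest profiles each for *atf1* and *sty1*, of which 1 for *atf1* is not reported here. *mpr1*, *prr1*, *ptc1*, *ptc2* and *cmk2* were added after their values were seen. *gpd1* is named by the rule as the nearest profile to *sty1*. Its values among the genes that need Atf1 were added after they were seen. The cascade genes and lists were chosen with earlier results of these data known. Python 3.11.15, pandas 2.3.3, numpy 2.4.6, scipy 1.17.1 and matplotlib 3.10.9 were used. Where all arrays of a temperature were below background, the fold is a bound against the background of those arrays.

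The deviations of same-numbered arrays (replicates 1, 2 and 3) from the mean of their temperature had correlations of 0.54, 0.45 and 0.43. All exceeded 0.1. Replicate numbers were treated as pairs only for the differences within replicate number and in the alternatives with the replicate block. The reported fit and its p-values take no account of this pairing. The 36°C array of replicate 3 correlated more with the 25°C array of replicate 2 (0.48). Replicate 1 carries another form of label than replicates 2 and 3, and these 2 label sets were also fitted as a block.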

Additional observations from a re-analysis of the deposited data

How the results depend on the processing

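Besides the reported fit, 20 alternatives were run. Those that centre arrays and block by replicate, or leave out both arrays of replicate 2 or of replicate 3, were chosen after seeing the data. Over the 10 cascade genes 170 values kept their direction and side of the threshold, 12 came to pass, 10 ceased to pass and 8 changed sign. The cause was not tested in any case.

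Cascade genes higher at 36°C numbered 5 as reported, 6 with the replicate block, 9 after centring with the replicate block and 2 to 7 with arrays left out. In the same order, 12.1%, 16.0%, 43.2% and 6.06% to 16.6% of all features were higher. The count of 2 cascade genes came without both arrays of replicate 2, where *pyp1* (adjusted p = 0.092), *atf1* (0.061) and *pcr1* (0.16) did not pass. Listed genes higher at 36°C (13 as reported) numbered 29 after centring, 30 after centring with the replicate block and 29 after quantile normalization. With the label set as a block 20 were higher (all features 16.6%). Without both arrays of replicate 1, 2 or 3 the higher ones numbered 20, 6 and 8, and without single arrays 8 or more (all features 9.42% or more). Lower ones (10 as reported) numbered 6 after quantile normalization. Of all features, 354 were higher as reported, 1154 after centring, 1261 after centring with the replicate block, 883 after quantile normalization, and 177, 225 and 484 without both arrays of replicates 2, 3 and 1. As reported 1514 were lower, against 1007 after centring and 990 after quantile normalization.

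The log2 fold change turned to 0.40 for *win1*, 0.56 for *wis1* and 0.10 for *spk1* after centring, with or without the replicate block. After quantile normalization it turned to 0.10 for *win1*, 0.28 for *wis1*, 0.86 for *spk1*, 0.23 for *ptc2* and 0.025 for *fbp1*. With arrays left out it ranged between -0.46 and 0.21 for *wis1*, the highest without the 36°C array of replicate 1, and was 0.039 without both arrays of replicate 1. With single arrays left out, the log2 fold change ranged between -0.069 and 0.48 for *ptc1* and between -0.012 and 0.57 for *mpr1*, and the difference in the ratio of *atf1* over *pcr1* ranged between -0.48 and 0.028.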
